A study of Medicago truncatula with 18 samples.

Results

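Transcript abundance in the first trifoliate leaf of *Medicago truncatula* cv Jester in long days (LD) was compared between 3 libraries sampled at ZT4 and 3 sampled at ZT2, where ZT counts the hours since lights on. These 6 libraries were chosen by their labels from 18, and the series had estimated counts for 50444 genes. All plants had been vernalised as germinated seed for 25 days and grown for 10 days in short days (SD, 8 h of light and 16 h of dark) before a shift to LD (16 h of light and 8 h of dark). Each library pooled 2 trifoliate leaves from different plants of the same treatment. The ZT2 leaves came from experiment 1, at 13 days of age after 3 days in LD, with libraries made by the ScriptSeq Complete Kit (Plant). The ZT4 leaves came from experiment 2, at 15 days of age after 5 days in LD, with libraries made by the TruSeq Stranded mRNA kit. Time of day was therefore confounded with experiment, plant age, days in LD and library kit, and these cannot be told apart in any difference between ZT4 and ZT2 below. The SD leaves of the same experiments, 3 libraries at each timepoint, were made with the same pair of kits at the same ages and are given beside the LD values. They had stayed in SD throughout.

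Flowering of *M. truncatula* is promoted by vernalisation followed by LD. Photoreceptors and the circadian clock measure day length in the leaf, and in *Arabidopsis thaliana* their output reaches *FT* through CONSTANS (CO), which is held back by the CYCLING DOF FACTORs (CDFs) until FKF1 and GIGANTEA (GI) remove them. FT is a small mobile protein, made in leaves, that acts at the shoot apex. *Medicago* has several *FT-like* genes, and its *CO-LIKE* (*COL*) genes are not known to fill the role of *CO*. Clock genes peak in sequence through the day, with *LHY* at dawn, *PRR* genes from the morning to the afternoon, and *TOC1*, *GI*, *ELF3*, *ELF4* and *LUX* later.

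The 6 libraries held between 18174450 and 23201592 estimated counts, with the ZT4 libraries the deeper, and between 26062 and 27116 genes with a value above 0. Leaf markers were high in both groups: the 5 genes described as the small subunit of ribulose bisphosphate carboxylase, the carbon-fixing enzyme, summed to 103826 to 110764 TPM (transcript abundance corrected for length and scaled to one sum in every library) at ZT2 and 95024 to 105411 TPM at ZT4. Of the apex and flower markers, *MtFULb* gave 23.9 ± 11.5 normalised counts at ZT2 and 18.6 ± 11.1 at ZT4 (SD, n = 3), *MtFULa* did not exceed 9.57 and *MtFULc* did not exceed 0.839 in a library. The 2 leghemoglobin genes, which carry oxygen in root nodules, summed to 1.44 to 1.95 TPM at ZT2 and 3.12 to 5.01 TPM at ZT4. The 2 genes described as nodule cysteine-rich peptides summed to 3.55 to 9.56 TPM and 12.8 to 18.9 TPM respectively. Both nodule sums were low but higher at LD ZT4, and their part in the results was not tested. In short days the leghemoglobin sum was 1.55 to 3.16 TPM at ZT2 and 0.306 to 1.07 TPM at ZT4. The nodule cysteine-rich sum there was 0.438 to 3.69 TPM and 1.14 to 1.6 TPM. Rises in LD were called for both leghemoglobin genes and the nodule cysteine-rich gene *Medtr7g052640*. Each call was lost without LD ZT2 replicate 3 or LD ZT4 replicate 2. Of the reference genes used by the study for RT-qPCR, the *PP2A* subunit gene *Medtr6g084690* had 1177 ± 50.4 normalised counts at ZT2 and 1172 ± 68.1 at ZT4, with a log2 fold change of 0.03 ± 0.08 (SE) and an adjusted p of 0.82. The tubulin beta-1 chain gene *Medtr7g089120* was higher at ZT4 by 0.54 on the log2 scale with overlapping libraries (adjusted p = 0.0353), and in 5 of the 6 fits that left out a library its adjusted p lay between 0.0754 and 0.181. In bulk leaf RNA a smaller share of a cell type and less RNA per cell cannot be told apart.

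Of 28747 genes tested, 5227 had an adjusted p under 0.05 between LD ZT4 and LD ZT2 in edgeR's quasi-likelihood test, which is 18.2% of those tested. They divided almost evenly, with 2547 (8.86%) higher and 2680 (9.32%) lower at ZT4. Most of these changes were small, with a median of 0.67 for the size of the log2 fold change among called genes. Genes were judged to be differentially expressed (DE) when they also changed by over 2-fold and had a mean above 10 normalised counts. There were 1280 DE genes (4.45% of those tested), of which 680 (2.37%) were higher and 600 (2.09%) were lower at ZT4. Without LD ZT2 replicate 1, 2 or 3 the number of called genes was 2753, 3130 or 2815, and without LD ZT4 replicate 2 or 3 it was 2545 or 3135. Without replicate 1 of LD ZT4 the number instead rose to 5677. The spread between replicates beyond counting noise (edgeR's common coefficient of variation) was 0.151 at LD ZT4 and 0.0893 at LD ZT2. Of the replicate pairs, LD ZT4 replicates 1 and 3 differed most.

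A list of candidate genes of the photoperiod pathway had been drawn up in the study by homology. Of these candidates, 133 were tested here and 61 were called, 21 higher and 40 lower at ZT4, which is 45.9% beside 18.2% of all genes tested. Among the 61 called, 26 were DE, with 11 higher and 15 lower. A mean above 10 normalised counts was reached by 114 of the 133 candidates, against 19589 of the 28747 genes tested. The 2 shares called thus come from genes of unlike abundance, and the part of abundance in the difference was not tested. The median log2 fold change of the tested candidates was -0.21, beside 0.04 for all genes tested. Calls of 40 candidates, 15 higher and 25 lower, were kept when any one of the 6 libraries was left out. The plot of candidates by role shows each gene's change.

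**Figure D1:**
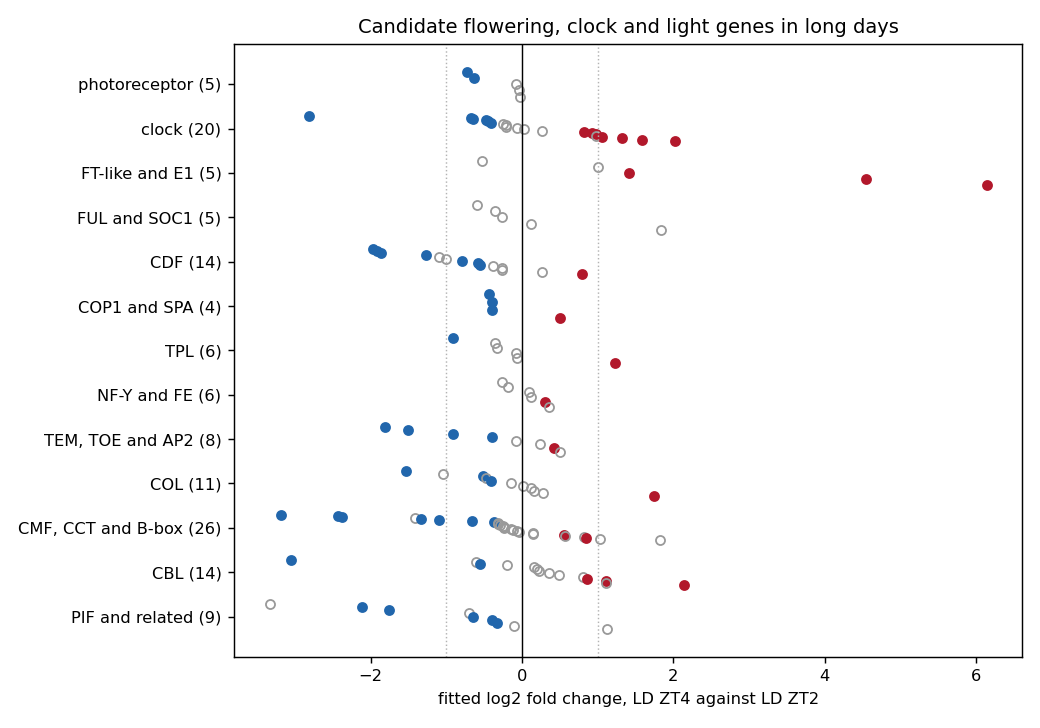
Fitted log2 fold change of the 133 tested candidate genes between LD ZT4 and LD ZT2 (horizontal axis), with 1 point per gene, grouped by role with the number tested in parentheses. Filled points had an adjusted p under 0.05 (21 higher in red, 40 lower in blue), open grey points did not, and dotted lines mark 2-fold; *MtFTb2* and *MtFTb1* lie farthest to the right at 6.14 and 4.55.

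The *FT-like* genes *MtFTb1* and *MtFTb2* showed the largest rises among the tested candidates. *MtFTb1* (*Medtr7g006630*) had 6.03, 5.79 and 7.95 normalised counts in the LD ZT2 libraries and 135, 162 and 160.1 in the LD ZT4 libraries. Its mean thus rose 23.1-fold from 6.59 ± 1.18 to 152 ± 15.2 (SD, n = 3), with a log2 fold change of 4.55 ± 0.21 (SE) and an adjusted p of 4.83e-06. *MtFTb2* (*Medtr7g006690*) had 0, 3.48 and 0 normalised counts at ZT2, which rest on 3 reads, and 78.3, 80.5 and 92.2 at ZT4. The ratio of the means was 72.2, with a 95% exact interval for counting error alone of 25.9 to 372 (fitted log2 fold change 6.14 ± 0.49, adjusted p = 5.40e-05). Neither gene had a read in any LD ZT0 library, nor in any SD library at ZT2 or ZT4, which allows up to 3 counts in each. These neighbouring genes are close relatives, and Salmon divides reads that fit both, so their separate levels are less certain than their sum.

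*MtFTa1* (*Medtr7g084970*) was already present at ZT2, with 24.1, 40.6 and 42 normalised counts, and had 117, 90.6 and 68.7 at ZT4. The groups did not overlap, and its log2 fold change was 1.42 ± 0.26 (SE, adjusted p = 0.00448). Its LD ZT0 libraries lay between 39.4 and 67.6, overlapping those of ZT2 and below those of ZT4, and no SD library at ZT2 or ZT4 exceeded 1.77. Per transcript length, the level of *MtFTb1* at LD ZT4 (13.3 ± 0.982 TPM) was above that of *MtFTa1* (7.76 ± 2.32 TPM) and *MtFTb2* (6.99 ± 0.348 TPM), whereas at ZT2 *MtFTa1* was the highest of the 3 at 2.94 ± 0.72 TPM. The remaining member *MtFTa2* had a log2 fold change of 1.00 ± 0.45 with overlapping libraries (adjusted p = 0.16). *MtFTa3* had no read in the 6 libraries.

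Other floral regulators did not pass the test. *MtE1*, the homologue of a legume-specific repressor of *FT* genes in soybean, had 42.7 ± 13.6 normalised counts at ZT2 and 28.5 ± 12.3 at ZT4 (adjusted p = 0.306), against 0.7 ± 0.607 at LD ZT0. Of 6 MADS-box genes of the *FUL* and *SOC1* type, 5 were tested and 0 were called in edgeR, 0 in DESeq2 and 0 in limma on TPM, while 1 had an unadjusted p under 0.05. *MtSOC1a*, a floral integrator, had 157 ± 15 normalised counts at ZT2 and 166 ± 14.7 at ZT4, a log2 fold change of 0.12 ± 0.12 (adjusted p = 0.521).

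**Figure D2:**
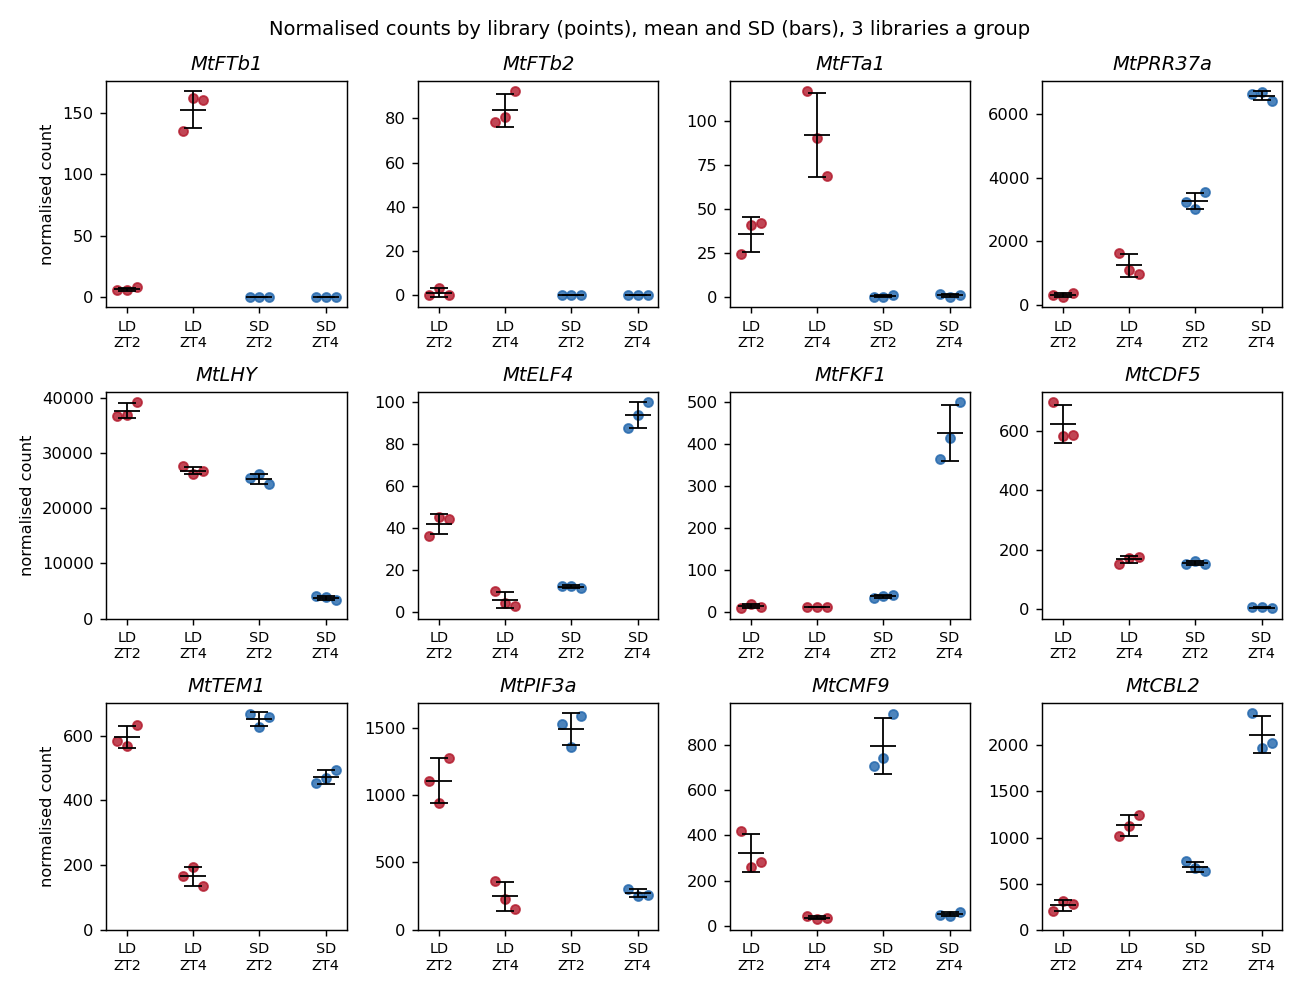
Normalised counts of 12 candidate genes in each library (points, vertical axes from 0) at ZT2 and ZT4 in LD (red) and SD (blue), with the mean and SD of 3 libraries in black. *MtFTb1* and *MtFTb2* are seen at LD ZT4 with nearly no value elsewhere, *MtFKF1* stays between 11 and 19.7 in LD, and the SD values of *MtLHY* and *MtCDF5* fall further than their LD values.

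Of 21 clock genes, 20 were tested and 13 were called (65%, beside 45.9% of all tested candidates), with 7 higher and 6 lower at ZT4. Among these were the *ELF3-like* gene *Medtr8g015480*, higher, and *MtELF3b*, lower. Both calls were lost whichever library other than LD ZT4 replicate 1 was left out (adjusted p between 0.0583 and 0.171). Limma on TPM did not make them (adjusted p = 0.18 and 0.0652). All 5 *PSEUDO-RESPONSE REGULATOR* genes, repressors of *LHY* transcription in *A. thaliana*, rose. *MtPRR37a* (*Medtr4g061360*) had 323, 239.9 and 376 normalised counts at ZT2 and 1648, 1085 and 986 at ZT4, a rise of 2.02 ± 0.21 on the log2 scale (adjusted p = 2.56e-04). *MtPRR59b* rose by 1.59 ± 0.15 (adjusted p = 1.28e-04), *MtPRR59c* by 1.32 ± 0.17 (adjusted p = 8.33e-04) and *MtPRR37b* by 0.92 ± 0.14 (adjusted p = 0.0021). The rise of *MtPRR59a* (1.06 ± 0.23, adjusted p = 0.0114) was not called without LD ZT2 replicate 1 (adjusted p = 0.0708) or replicate 3 (adjusted p = 0.0535), nor by limma on TPM (adjusted p = 0.0849), and over 18 fits its adjusted p ranged from 0.00182 to 0.0849. From LD ZT0 to ZT4 the means of these 5 genes ascended at each step, for example 5.99, 318 and 769 normalised counts in *MtPRR59c*.

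The dawn gene *MtLHY* (*Medtr7g118330*) had 36814, 36977 and 39247 normalised counts at ZT2 and 27608, 26175 and 26746 at ZT4. It was lower by 1.4-fold (log2 fold change -0.45 ± 0.07, adjusted p = 0.00186) and at 405 ± 24.3 TPM was still the most abundant clock transcript listed here. Its LD ZT0 libraries varied from 10801 to 23694, below both later groups. *MtELF4* (*Medtr3g070490*), a component of the evening complex, had 36.2, 45.2 and 44.3 normalised counts at ZT2 but 10.1, 4.19 and 2.61 at ZT4, a log2 fold change of -2.82 ± 0.37 (adjusted p = 8.68e-04). This was the only clock gene that was DE and lower. Smaller falls were measured in *MtGI* (from 2659.8 ± 187 to 1609.9 ± 296, adjusted p = 0.00487), *MtTOC1a* (from 111 ± 7.63 to 68.6 ± 4.63, adjusted p = 0.00901) and *MtZTL*, an F-box photoreceptor of the *FKF1* family (from 866 ± 31.7 to 608 ± 66.6, adjusted p = 0.00745). *MtGI* had been low at LD ZT0, with 6.73 ± 2.77 normalised counts.

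Several clock genes did not pass the test. *MtFKF1* (*Medtr8g105590*), the blue light receptor that marks CDF proteins for degradation, had 11, 19.7 and 12.5 normalised counts at LD ZT2 and 12.6, 13.4 and 13.9 at LD ZT4 (log2 fold change -0.06 ± 0.31, adjusted p = 0.929). *MtELF3a* was at 75.7 ± 18.8 and 63.2 ± 11 (adjusted p = 0.532) after 468 ± 101 at LD ZT0. *MtLUXa* and *MtLUXb* had log2 fold changes of 0.03 ± 0.32 and -0.21 ± 0.12 and were not called. *MtTOC1b* was not called either (-0.25 ± 0.13, adjusted p = 0.217), though its libraries did not overlap. A gene annotated as *ELF4-like* (*Medtr8g020200*) was called higher by 0.98 ± 0.20 (adjusted p = 0.0086), a call that was lost without LD ZT2 replicate 1 (adjusted p = 0.0633) or LD ZT4 replicate 2 (adjusted p = 0.0601), and with limma on TPM (adjusted p = 0.0681).

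The *CDF* genes encode Dof proteins that repress *CO* and *FT* in *A. thaliana*. Of 14 tested, 7 were lower, 1 was higher and 6 were not called, and their median log2 fold change was -0.68. The share called was 57.1%, beside 45.9% of all tested candidates. *MtCDF5* (*Medtr6g027460*) had 696, 583 and 588 normalised counts at ZT2 and 153, 174 and 176 at ZT4, a fall of 1.86 on the log2 scale (SE 0.11, adjusted p = 1.63e-05). Its neighbour by identifier *MtCDFf* (*Medtr6g027450*) went from 16.9 ± 3.68 to 4.25 ± 0.0854 (adjusted p = 0.00553). *MtCDF3* was lower by 0.79 (SE 0.12, adjusted p = 0.00161). The calls of *MtCDF2*, *MtCDF4*, *MtCDF6* and *MtCDFe* were each lost without at least 1 of the libraries. *MtCDF2* (log2 fold change -1.97 ± 0.41, adjusted p = 0.00932) was not called without LD ZT2 replicate 1 (adjusted p = 0.0526) or LD ZT4 replicate 2 (adjusted p = 0.0516), *MtCDF4* and *MtCDF6* were not called without LD ZT4 replicate 3 (adjusted p = 0.0509 and 0.0532), and *MtCDFe* was lost whichever library other than LD ZT4 replicate 1 was left out (adjusted p between 0.0698 and 0.159). *MtCDFb* alone was higher, with 678, 808 and 896 normalised counts at ZT2 and 1643, 1236 and 1127 at ZT4 (log2 fold change 0.79 ± 0.15, adjusted p = 0.00496), a call that limma on TPM did not make (adjusted p = 0.0574). *MtCDF1* had no more than 1.16 normalised counts in an LD library at ZT2 or ZT4, while the SD ZT4 libraries had 155 to 195.

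The *TEMPRANILLO* genes, which repress *FT* in *A. thaliana*, were also lower at ZT4. In the group of *TEM*, *TOE* and *AP2* genes, 8 were tested, with 1 higher and 4 lower (62.5% called, beside 45.9% of all tested candidates). *MtTEM1* (*Medtr1g093600*) had 584, 569 and 634 normalised counts at ZT2 and 167, 193 and 134 at ZT4, a fall of 1.81 on the log2 scale (SE 0.13, adjusted p = 3.02e-05). *MtTEM2* fell by 1.51 (SE 0.21, adjusted p = 0.00119). Both had their highest LD means at ZT0, at 1504 ± 404 and 1254 ± 207. Among the related AP2-type repressors, *MtAP2b* fell from 408 ± 41.5 to 212 ± 9.62 (adjusted p = 3.51e-04), whereas *MtTOE1a*, *MtTOE1c* and *MtTOE2* were not called. The call of *MtAP2a* (-0.40 ± 0.09, adjusted p = 0.0146) was lost without LD ZT2 replicate 1 (adjusted p = 0.0759) or 2 (0.0506). *MtTOE1b* was the member called higher (0.42 ± 0.09, adjusted p = 0.0119), a call lost whichever LD ZT2 replicate was left out, without LD ZT4 replicate 2 (adjusted p between 0.0507 and 0.074) and with limma on TPM (0.0895).

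Within 11 *COL* genes, 1 was higher, 3 were lower and 7 were not called. The share called was 36.4%, below the 45.9% of all tested candidates. The lower call of *MtCOLf* was lost whichever of the 6 libraries was left out (adjusted p between 0.054 and 0.143). *MtCOLk* (*Medtr1g110870*) had 185, 292 and 277 normalised counts at ZT2 and 712, 1015 and 727 at ZT4 (log2 fold change 1.75 ± 0.18, adjusted p = 2.57e-04), and it had been at 3206 ± 513 at LD ZT0. *MtCOLh* (*Medtr7g083540*) went the other way, from 83.4, 64.9 and 65.9 to 25.3, 15.9 and 31.3 (log2 fold change -1.53 ± 0.25, adjusted p = 0.00253). The abundant members *MtCOLa* and *MtCOLi* had log2 fold changes of 0.02 ± 0.09 and 0.12 ± 0.08, with adjusted p of 0.899 and 0.364.

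The *CMF*, CCT and B-box group held 31 genes, whose proteins share the CCT domain or B-box zinc fingers of CONSTANS. Of 26 tested, 2 were higher and 7 lower, and 5 of the lower genes were DE. The share called was 34.6%, below the 45.9% of all tested candidates. The lower calls of *Medtr2g089310* and *Medtr4g046640* were each lost without at least 1 of the libraries (adjusted p between 0.0528 and 0.0557). *MtCMF9* (*Medtr1g008220*) had 419.8, 262 and 284 normalised counts at ZT2 and 42.1, 28.5 and 33.1 at ZT4, which is 9.31-fold lower (log2 fold change -3.18 ± 0.22, adjusted p = 3.06e-05). *MtCMF10* (*Medtr3g091340*) had 592, 536 and 571 and then 108, 96.5 and 113, 5.36-fold lower (log2 fold change -2.38 ± 0.10, adjusted p = 2.70e-06). Both were at their highest LD mean at ZT0, at 701 ± 78.2 and 771 ± 43.6. The B-box genes *Medtr2g073370* and *Medtr2g011450* fell by 2.43 and 1.34 on the log2 scale (adjusted p = 0.00315 and 0.00743). In the opposite direction, *MtCMF1* rose from 542 ± 7.69 to 952 ± 77.7 (adjusted p = 1.78e-04) and the salt tolerance-like gene *Medtr4g067320* from 1687 ± 72.1 to 2403 ± 133 (adjusted p = 0.00133). *Medtr2g099010*, the most abundant of the group by normalised count, was not called (log2 fold change -0.15 ± 0.08, adjusted p = 0.234).

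The candidates included bHLH genes of the *CIB/BEE-like* (*CBL*) and *PHYTOCHROME INTERACTING FACTOR* (*PIF*) groups. In *A. thaliana* CIB proteins bind cryptochrome and act on *FT*, and PIF proteins are degraded on contact with active phytochrome. Of 14 *CBL* genes, 3 were higher and 2 lower, with a median log2 fold change of 0.29. The share called was 35.7%, below the 45.9% of all tested candidates. *MtCBL2* (*Medtr4g070320*) had 203, 312 and 278 normalised counts at ZT2 and 1016, 1131 and 1248 at ZT4 (log2 fold change 2.14 ± 0.14, adjusted p = 2.47e-05). *MtCBL1* rose from 396 ± 41.4 to 830.1 ± 100.5 (adjusted p = 1.78e-04) and *MtCBL3* from 115 ± 12.7 to 204 ± 19.7 (adjusted p = 0.00157). *MtCBL14* (*Medtr6g084120*) lay between 105 and 129 at ZT2 and had 24.4, 12.6 and 4.35 at ZT4, 8.64-fold lower on average and with a wide spread at ZT4 (log2 fold change -3.05 ± 0.36, adjusted p = 4.90e-04).

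Of 9 *PIF* and related genes, 5 were lower and 4 were not called, with a median log2 fold change of -0.65. The share called was 55.6%, beside 45.9% of all tested candidates. *MtPIF3a* (*Medtr1g084980*) had 1108, 939.7 and 1274 normalised counts at ZT2 and 365, 228 and 155 at ZT4 (log2 fold change -2.11 ± 0.25, adjusted p = 4.84e-04). *MtPIF1a* fell by 0.65 (SE 0.09, adjusted p = 8.89e-04). The calls of *MtPIF1b*, *MtPIF6* and *MtPIF78* were lost without 3, 5 and 5 of the 6 libraries in turn, at adjusted p between 0.0526 and 0.119. *MtPIF45* was not called (log2 fold change -0.11 ± 0.08, adjusted p = 0.388).

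Of 5 light receptor genes tested, 2 were called lower (40%, beside 45.9% of all tested candidates). *MtPHYB* was lower at ZT4, with 868, 849 and 995 normalised counts at ZT2 and 624, 533 and 545 at ZT4 (log2 fold change -0.63 ± 0.09, adjusted p = 0.00171). *MtPHYA*, *MtCRY1* and *MtCRY2A* had log2 fold changes of -0.04, -0.02 and -0.08, each with an SE of at most 0.10, and their libraries overlapped. *MtCRY2B* (-0.73 ± 0.17, adjusted p = 0.0149) was not called without LD ZT2 replicate 1 or 3 or LD ZT4 replicate 2 or 3 (adjusted p between 0.0518 and 0.0653). COP1 and SPA proteins together degrade CONSTANS in the dark in *A. thaliana*. Of their 4 genes, 1 was called higher and 3 lower (100%, beside 45.9% of all tested candidates). The *SPA1-like* gene *Medtr8g027985* rose from 734 ± 76.6 to 1009 ± 77.5 in edgeR (adjusted p = 0.00714, against 0.114 in limma on TPM) and the *SPA1-like* gene *Medtr5g009530* fell from 988 ± 61.7 to 709.5 ± 43.9 (adjusted p = 0.00591). The lower calls of *MtCOP1* (-0.40 ± 0.09, adjusted p = 0.0146) and the *SPA1-like* gene *Medtr2g085210* (-0.39 ± 0.08, adjusted p = 0.0111) were lost without 4 and 3 of the 6 libraries in turn, at adjusted p between 0.0501 and 0.0736. Of 6 *TOPLESS-like* corepressor genes tested, 1 was higher, 1 was lower and 4 were not called, a share called of 33.3%. *Medtr4g009840* fell from 2776 ± 202 to 1435 ± 106 (adjusted p = 1.55e-04), while *Medtr2g065670*, at 7.16 ± 3.35 and 16.7 ± 0.827 (adjusted p = 0.0454), lost its call whichever of the 6 libraries was left out (adjusted p between 0.057 and 0.143).

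Beyond the candidates, the files do not pair identifiers with names, and only 295 of the 1280 DE genes had a description among those given by the study, so most of the extreme genes stay unnamed. The greatest fall was that of *Medtr5g072930*, which has no description, with 1555, 855 and 1592 normalised counts at ZT2 and 1.68, 0 and 0 at ZT4, the latter resting on 2 reads (ratio 2377, counting interval 657 to 19626). It had 299 at LD ZT0. In SD it also fell, from 272 to 2.37. A *SAUR-like* auxin-responsive gene (*Medtr1g063950*) went from 55.2, 75.3 and 77.2 to 0.842, 0.839 and 0, also 2 reads (ratio 124, counting interval 33.1 to 1007). The undescribed *Medtr7g090140* led the rises at 12.1, 1.16 and 0 against 295, 192 and 554 normalised counts (log2 fold change 6.20 ± 0.65, adjusted p = 2.60e-04), and its ZT4 libraries varied more than those of *MtFTb1*.

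Among DE genes with a mean above 1000 normalised counts, 32 were higher and 49 lower, beside 680 and 600 of all DE genes. No share of the genes tested above that mean is given here. The largest falls were in genes without a description. *Medtr1g073840* went from 2099 ± 279 to 138 ± 56.8 and *Medtr3g083370* from 47127 ± 5329.8 to 10398 ± 1471 (adjusted p = 1.72e-05 and 1.60e-05). An expansin A10 gene (*Medtr5g041700*), whose protein loosens cell walls during growth, had 931, 772 and 670.1 normalised counts at ZT2 and 3120.0, 3799.7 and 4162 at ZT4 (log2 fold change 2.26 ± 0.15, adjusted p = 2.19e-05). Its LD ZT0 mean was 3560.3. A GASA/GAST/Snakin gene (*Medtr7g090590*), of a family of small peptides often induced by gibberellin, rose from 511 ± 179.8 to 1818 ± 566 (adjusted p = 0.00203). Further described DE genes, picked after their values were seen, were a thaumatin-type pathogenesis-related gene (*Medtr5g010635*), which fell 20.7-fold from 335 ± 102 to 16.2 ± 6.39, and a *SQUAMOSA PROMOTER-BINDING-LIKE* gene (*Medtr7g444860*), of the family targeted by miR156, which went from 40.5 ± 3.1 to 2.26 ± 0.451 (adjusted p = 3.32e-05 and 4.87e-05). The ratio of the latter was 17.9 (counting interval 8.76 to 42.4). A gibberellin 20-oxidase gene (*Medtr1g102070*) rose from 6.41 ± 3.15 to 22.9 ± 2.68 (adjusted p = 0.00642).

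Lists of genes were also formed from the descriptions. Descriptions were at hand for 4414 genes, which had been chosen for differing between LD and SD in these samples, so the lists are partial and not independent evidence of a direction. Of these genes, 4400 were tested and 26.3% were called. Of 23 flavonoid synthesis genes, 10 were lower, 1 was higher and 12 were not called. Chalcone synthase, the first step of the pathway, had its most abundant member *Medtr7g084300* fall from 23791 ± 1734 to 12302 ± 1249 normalised counts (adjusted p = 2.37e-04), and *Medtr5g007713* fell 6.98-fold from 1427 ± 301 to 204 ± 34.3 (adjusted p = 1.63e-05), after 47.6 at LD ZT0. Of 16 starch genes, 8 were lower, 1 was higher and 7 were not called. Within the beta-amylases, which release maltose from starch, *Medtr2g089030* fell from 6204 ± 315 to 2251 ± 227 (adjusted p = 2.28e-05) and *Medtr5g013640* from 156 ± 29.4 to 45.5 ± 11 (adjusted p = 4.60e-04), while *Medtr4g045667* rose from 9085 ± 843 to 13900.1 ± 1074 (adjusted p = 0.00115, against 0.0938 in the fit of all 18 libraries). The median log2 fold changes of the flavonoid and starch lists were -0.44 and -0.28, beside -0.06 for all genes with a description.

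Cell wall loosening genes went both ways, with 4 of 15 higher and 3 lower (46.7% called, beside 26.3% of genes with a description). A second expansin A10 gene (*Medtr7g011060*) rose from 113 ± 32.7 to 398 ± 110.3 (adjusted p = 8.76e-04) and an expansin-like B1 gene (*Medtr2g090270*) from 3.26 ± 1.87 to 24.1 ± 6.01 (adjusted p = 0.0018), whereas an expansin-B1-like gene (*Medtr5g013440*) fell from 19.8 ± 6.54 to 3.12 ± 1.29 (adjusted p = 0.00341). Of 16 auxin genes, 5 were lower and 1 was higher. The Aux/IAA gene *Medtr2g101500*, of a family of auxin response repressors, fell from 447 ± 20.3 to 111 ± 16.1 (adjusted p = 1.63e-05). Among housekeeping lists, of 38 plastid-type ribosomal proteins 1 was higher and 2 lower, of 9 cytosolic ones 1 was higher and 2 lower, and of 6 light-harvesting antenna genes 1 was higher. The shares called were 7.89%, 33.3% and 16.7% respectively. Of 17 core histones 0 were called in edgeR, in DESeq2 or in limma on TPM, and 1 had an unadjusted p under 0.05.

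The SD libraries allow a comparison in which both photoperiods pass from experiment 1 to experiment 2. The LD leaves also went from 3 to 5 days in LD, while the SD leaves had 0 at both timepoints. In a difference between the LD and SD changes, time of day and the added days in LD cannot be told apart. The question was where the change from ZT2 to ZT4 in LD differed from that in SD. In the fit of these 12 libraries, the interaction of photoperiod and time had an adjusted p under 0.05 for 5084 of 30351 genes (16.8%), of which 2605 changed more upward in LD than in SD and 2479 more downward. With DESeq2 size factors in edgeR the split was 2614 and 2459. It was 1422 and 3526 with limma on TPM, where the median interaction of genes with a mean above 10 was -0.14 on the log2 scale against 0.02 in edgeR, and 1782 and 2612 in the fit of all 18 libraries, where the median was -0.04. Over 19589 genes with a mean above 10 in the LD libraries, the median absolute log2 change was 0.26 in LD and 0.37 in SD. In this set 7.67% of genes moved over 2-fold in LD against 16.6% in SD. The set was chosen by LD counts alone, so genes near 0 in SD were kept and genes seen only in SD were left out. The sizes of change in LD and SD are therefore not on an equal footing. Across genes the changes in LD and SD had a Pearson r of 0.49, a description only, since genes are not independent and both changes share the switch of experiment and kit.

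**Figure D3:**
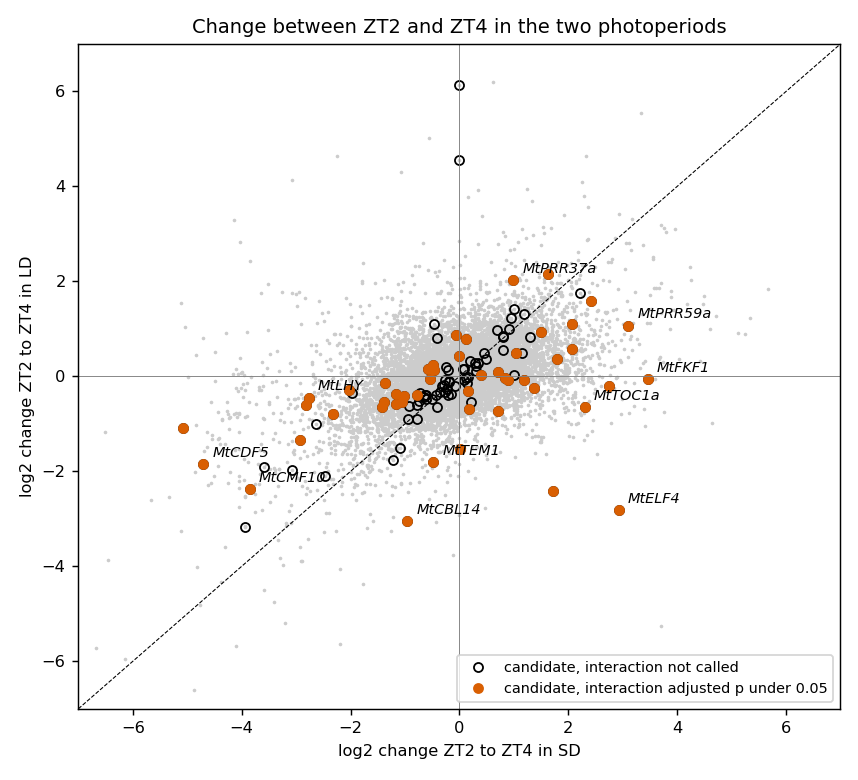
Log2 change from ZT2 to ZT4 in SD (horizontal axis) and LD (vertical axis) for 19583 genes (grey), leaving out 6 beyond the axes. Genes had a mean above 10 normalised counts in the LD libraries, with no minimum in SD, and the dashed line marks equal change. Candidates with a called interaction are filled orange, other candidates are open, and the open points at the top of the vertical axis are *MtFTb2* and *MtFTb1*, which had no read in SD.

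Of the 1280 DE genes in LD, 482 (37.7%) also had a called interaction and 798 did not. Among those 482, the SD change had the opposite sign for 181, was smaller in the same direction for 161 and larger in the same direction for 140. Of the 798 without, 785 had the same sign in SD. Choosing genes with a large change in LD and no called difference makes a same sign likely, so this count is a description only. Without a called interaction, the rise or fall of these genes in LD was not distinguished from what the leaves in SD did between the same experiments. Examples are *MtCMF9* (log2 change -3.18 in LD and -3.95 in SD, interaction adjusted p = 0.106), *MtPIF3a* (-2.11 and -2.47, 0.452) and *MtCOLk* (1.75 and 2.21, 0.177).

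For 51 of the 133 tested candidates (38.3%, beside 17.7% of the 28747 genes tested in LD) the interaction was called, 26 more upward and 25 more downward in LD, and 43 of these calls held whichever LD library was left out. These 2 shares also come from genes of unlike abundance. The clock genes were mostly more downward in LD, with 9 of 11. *MtELF4* fell in LD but rose in SD from 12 to 93.6 mean normalised counts (interaction -5.74 ± 0.39 on the log2 scale, adjusted p = 6.65e-08). *MtFKF1*, not called in LD, rose in SD from 38.4 to 427 (interaction -3.51 ± 0.35, adjusted p = 3.00e-06). *MtELF3a* (-2.95), *MtTOC1a* (-2.96), *MtTOC1b* (-1.62), *MtPRR59a* (-2.03), *MtGI* (-0.86) and *MtPRR59b* (-0.83) also changed more downward in LD, with adjusted p between 1.68e-07 and 0.00178. Of these, *MtPRR59a* and *MtPRR59b* rose in LD, but by less than in SD. The call of *MtPRR37b* (-0.57, adjusted p = 0.0252) was lost without LD ZT2 replicate 3 (adjusted p = 0.0735) or LD ZT4 replicate 2 (0.0773) or 3 (0.0706). In contrast *MtLHY*, which was 1.4-fold lower in LD, dropped in SD from 25334 to 3753 (interaction 2.33 ± 0.11, adjusted p = 1.12e-09). *MtPRR37a* rose more in LD than in SD in edgeR (1.03 ± 0.23, adjusted p = 0.0041, against 0.127 in limma on TPM), from a level below that of SD.

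*MtCDF5* and *MtCDF3* fell less in LD than in SD (interaction 2.85 ± 0.25 and 1.55 ± 0.20, adjusted p = 9.10e-07 and 4.01e-05), and at LD ZT4 *MtCDF5* was at 168 ± 12.4 normalised counts against 5.97 in SD. *MtTEM1* fell more in LD than in SD (-1.33 ± 0.14, adjusted p = 5.55e-06), whereas the interaction of *MtTEM2* was not called (-0.42 ± 0.23, adjusted p = 0.273). *MtCOLe*, which was low in LD at both timepoints (9.02 and 4.25 normalised counts), rose in SD from 1.88 to 64.4 (-6.03 ± 0.68, adjusted p = 1.17e-05). *MtCBL14* fell more in LD (-2.09 ± 0.45, adjusted p = 0.00378), and *MtCBL11*, which was not called in LD, dropped in SD from 273 to 38.9 (2.22 ± 0.24, adjusted p = 7.37e-06). The phytochrome and cryptochrome genes *MtPHYA*, *MtCRY2A* and *MtCRY2B* rose in SD by 0.84, 0.90 and 0.72 and not in LD (interaction adjusted p = 1.97e-04, 1.57e-05 and 5.73e-06).

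For *MtFTb1* and *MtFTb2* the count model gave no usable interaction (adjusted p = 1 for both). All SD libraries were at 0, so a model without the interaction could fit the counts as well. With DESeq2 the interaction was called for both (adjusted p = 0.0246 and 0.00415). With limma on log2(TPM + 0.5), an alternative added after the data were seen, it was 3.68 and 3.69 on the log2 scale (adjusted p = 1.06e-06 and 7.63e-06). Both genes had 0 TPM in every SD library, so these values are the LD change alone. They are not separate evidence that the change differs between LD and SD. *MtFTa1*, which had at most 1.77 normalised counts in SD, had no call in edgeR (0.42, adjusted p = 1) or DESeq2 (0.31, adjusted p = 0.935). Of the alternatives, only limma on TPM called it (1.14, adjusted p = 0.0382).

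Transcript length moved with the comparison. When the 19589 genes with a mean above 10 were divided into quintiles by effective length, 6.51% of the shortest quintile were DE and higher at ZT4 and 2.94% DE and lower, while in the longest quintile 1.3% were higher and 2.63% lower. The median log2 fold change went from 0.15 in the shortest quintile to -0.09 in the longest. *MtFTa1*, *MtFTb1*, *MtFTb2* and *MtELF4* belong to the shortest quintile, *MtCBL1*, *MtCBL2* and *MtCOLk* to the middle one, and *MtPRR37a* and *MtPRR59a* to the longest. The part of length in their changes was not tested.

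**Figure D4:**
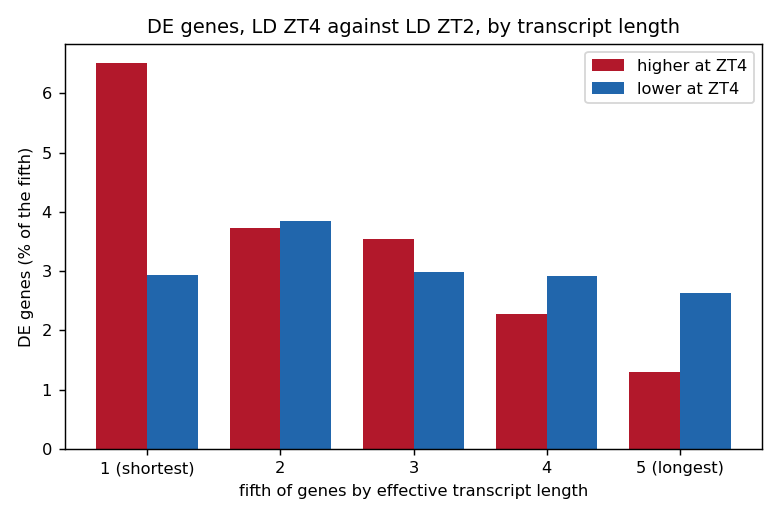
Percentage of genes that were DE and higher (red) or lower (blue) at LD ZT4 than at LD ZT2 (vertical axis), in quintiles of the 19589 genes with a mean above 10 normalised counts ordered by effective transcript length (horizontal axis). The share of higher genes descends from 6.51% in the shortest quintile to 1.3% in the longest, and that of lower genes stays between 2.63% and 3.85%.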

How the data were processed

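The authors trimmed reads with BBDuk, quantified them with Salmon 0.8.2 against the Mt4.0v2 transcripts and summed transcripts to genes with tximport, and deposited gene-level estimated counts and TPM, with no filter. Each experiment was run on its own sequencing lane. Estimated counts were rounded to whole numbers. edgeR 4.0.16 in R 4.3.3 was used with TMM scaling and its quasi-likelihood test, on genes whose counts summed to over 1 across the compared libraries, a prior count of 0.125 and Benjamini-Hochberg adjustment over all genes tested (threshold 0.05). The LD comparison used 6 libraries and the interaction 12. Normalised counts come from a TMM scaling of all 18 libraries, and SE is the log2 fold change over the root of the F statistic. Changes in SD come from the interaction fit. The steps were tested on simulated data.

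Named genes were picked from several sets, and not every member of a set is named. The sets were the study's candidates, RT-qPCR references, leading members of lists and rankings of DE genes. Ranked were the 10 largest rises and falls without overlap, the 5 largest at a mean above 1000 and the 5 largest with an interaction. Of the 10 largest, at most 2 of each direction are named where no description exists. Others are named as seen later. Members and lists were chosen with earlier results of these data known. Libraries are separate samples of leaf pairs, so p-values measure the spread between plants grown together. Alternatives were DESeq2 1.42.0, other scalings, filters, a length offset, thinning, limma 3.58.1 on TPM, a fit of all libraries, each library left out and the replicate number as a block. None of the 50444 identifiers (0) matched the RefSeq table, so no coordinates or sequences are given.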

Additional observations from a re-analysis of the deposited data

Results flagged for a closer look

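The results below were singled out because the change from ZT2 to ZT4 differed between LD and SD by the interaction test of edgeR, as for 5084 genes in all. Days in LD also differed between LD ZT2 and LD ZT4 but not in SD, and their part was not tested. Values are the LD change minus the SD change on the log2 scale. More downward in LD is thus relative to SD, and includes genes that rose in LD, such as *MtPRR59b*, *MtCBL1* and *Medtr5g041700*. More upward in LD likewise includes genes that fell in LD, such as *MtLHY*, *MtCDF5* and *MtCMF10*.

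Genes called lower in LD that moved over 2-fold in opposite directions in the photoperiods were *MtELF4* (-5.74), the B-box gene *Medtr2g073370* (-4.14), the beta-amylase gene *Medtr5g013640* (-3.84) and the universal stress protein gene *Medtr1g087200* (-3.62). All 4 were higher at ZT4 than at ZT2 in SD.

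More downward in LD were the light receptor genes *MtPHYA* (-0.87), *MtCRY2A* (-0.98) and *MtCRY2B* (-1.44) and the clock genes *MtTOC1a* (-2.96), *MtTOC1b* (-1.62), *MtPRR59a* (-2.03), *MtPRR59b* (-0.83), *MtELF3a* (-2.95), *MtGI* (-0.86) and *MtFKF1* (-3.51). The same direction was found for *MtTEM1* (-1.33), *MtTOE1a* (-1.27), *MtCOLe* (-6.03), *MtCOLh* (-1.54), *MtCBL1* (-0.95) and *MtCBL14* (-2.09), and for an expansin A10 gene *Medtr5g041700* (-0.77) and the GASA/GAST/Snakin gene *Medtr7g090590* (-1.70).

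More upward in LD were *MtLHY* (2.33), *MtPRR37a* (1.03), *MtCDF3* (1.55), *MtCDF5* (2.85), *MtCOLb* (0.61) and *MtCMF10* (1.48). The CCT domain genes *Medtr2g099010* (1.22), *Medtr4g008050* (1.74) and *Medtr4g046640* (4.00) and the bHLH genes *MtCBL3* (0.92), *MtCBL8* (0.74) and *MtCBL11* (2.22) shared that direction. So did the undescribed *Medtr7g090140* (5.58), the beta-amylase gene *Medtr2g089030* (0.98) and the other expansin A10 gene *Medtr7g011060* (1.98).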

How the results depend on the processing

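The count of DE genes (1280) stayed within 1.5 times under all alternatives except limma on log2(TPM + 0.5) (735) and minimum log2 fold changes of 1.5 (533) and 2 (240), which admit fewer genes by construction. Under limma on TPM 1384 called genes were higher and 2206 lower, against 2547 and 2680. DESeq2 called 4544 genes, and 1136 of its 1164 DE genes were shared. Leaving out each library in turn gave 2545 to 5677 called genes, 936 to 1389 DE genes, 45 to 62 called candidates and 4222 to 5583 interactions; a group then had 2 libraries. Limma on TPM reversed the interactions of *MtCDF2* (-0.54, adjusted p = 0.0481) and *MtCDFf* (-0.40, adjusted p = 0.0465), which edgeR gave as 1.11 and 1.68 without a call, with adjusted p from 0.0465 to 0.673 over the alternatives; the cause was not tested. It also ended the interaction call of *MtPRR37a*. With the replicate block, 4864 genes were called, 1341 were DE, 62 candidates were called and 5013 interactions were called. The numbers do not pair the samples, since deviations of same-numbered libraries correlated by -0.01, 0.108 and -0.115 across 19589 genes. Depth limits genes of low count, such as *MtFTb2* with 3 reads at ZT2.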
